A study of Mus musculus with 6 samples.

Results

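Collagen IV is the network-forming collagen of basement membranes, the sheets of matrix on which epithelial and endothelial cells rest. Its 6 chains, α1 to α6, are encoded by Col4a1, Col4a2, Col4a3, Col4a4, Col4a5 and Col4a6. The α1 and α2 chains are present in nearly all basement membranes and in the matrix around mesangial cells, whereas the network of α3, α4 and α5 chains gives the mature glomerular basement membrane its strength and is classically made by podocytes. The α5 and α6 chains also assemble together, in Bowman's capsule and some tubules. Mutations of COL4A3, COL4A4 and COL4A5 cause Alport syndrome. The rows of these 6 genes were chosen by name, as 6 of the 19730 rows of the expression table, and the Control versus TGF-β1 contrast described here was also the one by which the family was selected. Levels and changes of the chains are therefore given as descriptions without a test.

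RNA-Seq was performed on primary mouse mesangial cells, which hold the capillary loops of the glomerulus together, in 3 Control libraries and 3 libraries of cells given TGF-β1 (transforming growth factor β1, a secreted inducer of matrix) at 10 ng/ml for 72 h. Both groups were grown at 25.5 mM glucose in 20% serum and used at passage 3 to 6. The strain, sex and age of the mice, a vehicle in the Control cultures and whether replicates came from separate cultures are not given in the sources used here, so p-values measure only the spread between these libraries, which may be technical. Values are FPKM (fragments per kilobase of transcript per 1 M (mega) mapped fragments), a measure per length in which genes can be compared within a library. Depth was about 9.93 to 10.9 M fragments per library, as recovered from the steps of the lowest values, taking fragments to be 200 nt long. Across genes, the deviations of the replicate 2 libraries from the means of their groups correlated at 0.23, the highest value between any Control and TGF-β1 library. Values without the replicate 2 libraries are given for the named genes whose call changed, and for Col4a3 and the Col4a1 and Col4a2 share.

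The 6 genes lie as head-to-head pairs on 3 chromosomes, each pair transcribed outwards from the region between the starts. On mm9, Col4a1 (chromosome 8, 11198423 to 11312826, minus strand) and Col4a2 (11312805 to 11449287, plus strand) overlap by 22 bases at their 5′ ends. Col4a4 (chromosome 1, 82447298 to 82583424, minus strand) and Col4a3 (82583496 to 82718634, plus strand) are 71 bases apart. Col4a6 (chromosome X, 137599946 to 137908619, minus strand) and Col4a5 (137909928 to 138123778, plus strand) are 1308 bases apart. The DNA between or shared by the starts is shown because each pair moved its own way with TGF-β1: the chromosome 8 pair was lower, the chromosome 1 pair higher, and the X pair lower to very different extents. For the X pair, the 250 bases before each start are shown. Each run reads 5′ to 3′ on the strand named. Capitals mark matches on either strand to GGGCGG (GC box), CCAAT and CAGAC (a SMAD box, the short motif bound by the transcription factors downstream of TGF-β receptors).
between Col4a4 and Col4a3 (chr1:82583425-82583495, plus strand): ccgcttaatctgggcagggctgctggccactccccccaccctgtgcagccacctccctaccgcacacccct
shared by Col4a1 and Col4a2 (chr8:11312805-11312826, plus strand): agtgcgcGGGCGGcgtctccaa
before Col4a6 (chrX:137908620-137908869, minus strand): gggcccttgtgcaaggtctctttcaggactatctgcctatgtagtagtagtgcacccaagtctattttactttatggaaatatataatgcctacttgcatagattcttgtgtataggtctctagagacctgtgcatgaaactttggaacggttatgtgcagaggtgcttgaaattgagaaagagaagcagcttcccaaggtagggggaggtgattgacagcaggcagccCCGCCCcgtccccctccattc
before Col4a5 (chrX:137909678-137909927, plus strand): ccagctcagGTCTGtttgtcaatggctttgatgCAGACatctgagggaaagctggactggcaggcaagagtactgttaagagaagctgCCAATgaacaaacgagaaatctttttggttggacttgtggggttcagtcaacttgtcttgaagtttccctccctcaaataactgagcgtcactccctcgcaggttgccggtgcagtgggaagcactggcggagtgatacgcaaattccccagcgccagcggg

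The promoter windows, 250 bases before to 50 bases after each start, were 74% GC for Col4a1, 73.7% for Col4a2, 64.7% for Col4a3, 63.3% for Col4a4, 52.7% for Col4a5 and 48.3% for Col4a6, against a median of 58.3% over 15981 protein-coding promoters. The 2 X-linked windows were thus the poorest in GC and the only ones below the median. CpG sites numbered 37, 33, 17, 14, 11 and 3 in the same order, against a median of 17. The windows of a close pair overlap, so those of Col4a1 and Col4a2, and of Col4a3 and Col4a4, are not independent. GGGCGG was found in the Col4a1, Col4a2, Col4a5 and Col4a6 windows and in neither window of the chromosome 1 pair, and 54.1% of all promoters hold it. CAGAC was found 2 times in the Col4a3 window, 2 times in that of Col4a5, and 1 time each in those of Col4a2 and Col4a4, and 48% of promoters hold it. CCAAT, held by 37.5% of promoters, was found in the Col4a1, Col4a2 and Col4a5 windows. TATAAA (9.11% of promoters) and the palindrome GTCTAGAC (0.2%) were in none of the 6. Both strands were searched, and no motif contains another. A match is only a run of letters and was not tested for binding.

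In Control cells collagen IV was mostly α1 and α2. Col4a1 was at 381, 429 and 423 FPKM in Control and at 191, 203 and 190 FPKM after treatment, so that every treated library was below every Control library. The mean went from 411 ± 26.1 to 194.5 ± 7.55 FPKM (SD, n = 3), which is 2.11-fold lower, a log2 change of -1.07 (SE 0.085) on the log2(FPKM + 1) scale. Col4a2 was at 294, 329 and 314 FPKM in Control and at 112, 105 and 106 FPKM with TGF-β1. Its mean went from 312 ± 17.8 to 108 ± 4.24 FPKM, 2.90-fold lower (log2 change -1.53, SE 0.080). Both major chains thus remained among the most abundant transcripts, at percentile 97.8 and 97.2 of tested genes in Control and 95.1 and 91.3 with TGF-β1.

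Of the α3 and α4 pair, Col4a3 was at 2.66, 1.88 and 2.75 FPKM in Control and at 36.3, 41.7 and 35.7 FPKM with TGF-β1. The mean went from 2.43 ± 0.48 to 37.9 ± 3.29 FPKM, 15.6-fold higher (log2 change 3.51, SE 0.13). The replicate 2 libraries held its lowest Control and its highest treated value, and with replicates 1 and 3 alone the log2 change was 3.32. Col4a4 was at 1.49, 1.43 and 1.37 FPKM in Control and at 12.6, 12.3 and 11.8 FPKM with TGF-β1, the tightest treated replicates of the family relative to their mean. Its mean went from 1.43 ± 0.064 to 12.2 ± 0.41 FPKM, 8.54-fold higher (log2 change 2.44, SE 0.083). Because adding 1 FPKM compresses low values, the differences between groups in mean log2(FPKM) without it were 3.98 for Col4a3 and 3.10 for Col4a4. Both genes moved from the low end of the tested genes (percentile 12.8 and 5.07) to the middle and above (78.0 and 50.8).

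The X-linked pair was lower with TGF-β1, Col4a6 far more than Col4a5. Col4a5, which encodes the α5 chain shared by both minor networks, was at 56.6, 50.6 and 66.8 FPKM in Control and at 41.8, 37.0 and 37.7 FPKM with TGF-β1. The lowest Control library stood 1.21-fold above the highest treated one, the narrowest gap of the 6 genes. Its mean went from 58.0 ± 8.21 to 38.8 ± 2.55 FPKM, 1.49-fold lower (log2 change -0.56, SE 0.12). Col4a6 was at 13.1, 13.6 and 12.5 FPKM in Control and at 2.15, 2.28 and 1.72 FPKM with TGF-β1. Its mean went from 13.1 ± 0.58 to 2.05 ± 0.29 FPKM, 6.38-fold lower (log2 change -2.21, SE 0.10).

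**Figure D1:**
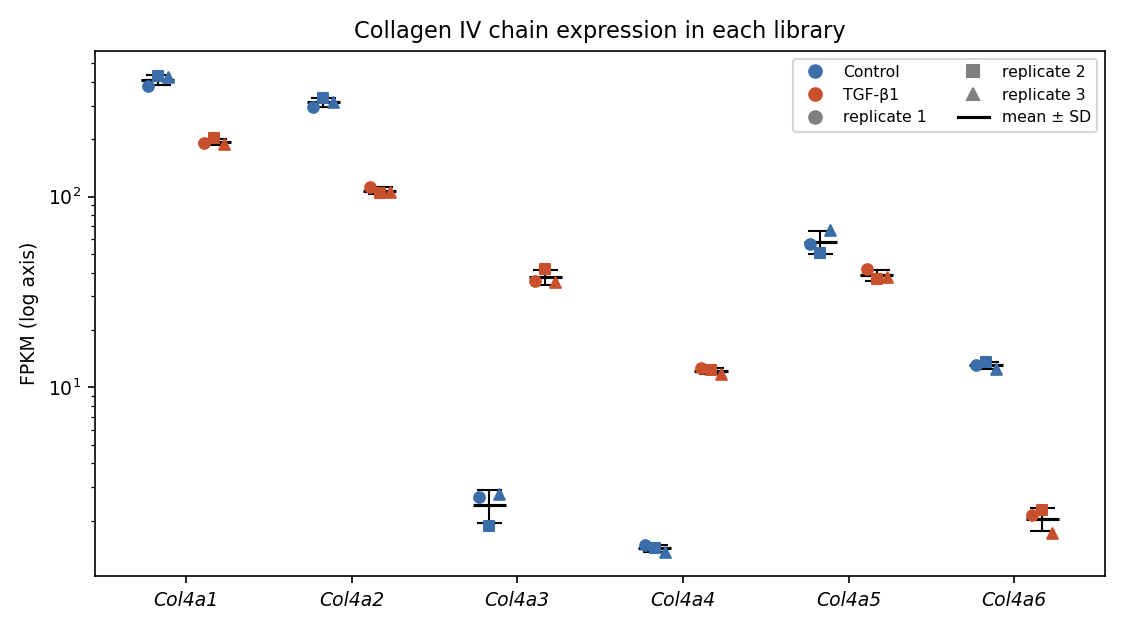
FPKM of the 6 collagen IV genes on a log axis in each of the 3 Control (blue) and 3 TGF-β1 (red) libraries, with replicates 1 to 3 as circles, squares and triangles and black bars for the mean ± SD. Control points lie above the TGF-β1 points for Col4a1, Col4a2, Col4a5 and Col4a6 and below them for Col4a3 and Col4a4.

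All 6 genes passed the filter of a mean of at least 1 FPKM, and in all 6 the groups did not overlap, as in 59.4% of the 11898 tested genes. By limma with an adjusted p under 0.05, 48.1% of tested genes changed, 24.5% higher and 23.6% lower with TGF-β1. Since this contrast served to select the family, nothing is read from its counts. All 6 kept their direction under each of 3 other scalings. Under the scaling to a common sum of protein-coding rows, which shifted the median of all genes to -0.19, the log2 change was -0.75 for Col4a5 and -2.37 for Col4a6. The lowest values rest on few fragments, counted at the length of the longest coding transcript of each gene. They were about 110 to 124 per library for Col4a4 in Control and 118 to 149 for Col4a6 with TGF-β1. For Col4a3 in Control they were about 170 to 243, against at least 12944 for Col4a1 in any library. The Col4a3 value carries a further limit. Its row is named by a transcript of 2 exons with a retained intron (1926 nt), whereas its longest coding transcript has 52 exons and 8554 nt, and the sources do not say if values are per gene or per named transcript. At 1926 nt its values would rest on fewer fragments than those given. Among genes with several transcripts, 99.6% of rows carry the transcript with the lowest start. Col4a1 and Col4a2 overlap on opposite strands, and whether strand was used in counting is not stated either.

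The order of the chains by level also differed between the groups. In Control it was Col4a1, Col4a2, Col4a5, Col4a6, Col4a3 and Col4a4 from highest to lowest, and no neighbours in this order overlapped across libraries. With TGF-β1 it was Col4a1, Col4a2, Col4a5, Col4a3, Col4a4 and Col4a6, and here Col4a5 (37.0 to 41.8 FPKM) and Col4a3 (35.7 to 41.7 FPKM) overlapped. Col4a6 therefore went from the fourth to the lowest place. The FPKM of Col4a5 was 24.2 ± 2.83 times that of Col4a3 in Control and 1.03 ± 0.13 times that of Col4a3 with TGF-β1. Relative to Col4a4 it was 40.7 ± 7.25 and 3.18 ± 0.16 times. Col4a5 was thus nearer in level to both other genes of the α3, α4 and α5 network in the treated cells, while Col4a3 and Col4a4 were farther from each other. Together the 3 genes went from 61.9 ± 8.58 to 89.0 ± 3.24 FPKM.

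Setting α1 and α2 against the other chains, the major pair took a smaller part of collagen IV transcripts with TGF-β1. Col4a1 and Col4a2 together made up 90.1%, 91.8% and 89.8% of the FPKM sum of the 6 genes in the Control libraries and 76.6%, 76.7% and 77.2% in the TGF-β1 libraries. The mean share went from 90.6 ± 1.07% to 76.8 ± 0.35%, a difference of -13.7 percentage points (-13.1 points with replicates 1 and 3 alone). Both the loss of the major chains and the gain of Col4a3 and Col4a4 entered this share. The sum of Col4a1 and Col4a2 went from 723 ± 43.3 to 302 ± 6.38 FPKM, while the sum of the other 4 genes went from 74.96 ± 7.99 to 91.0 ± 3.53 FPKM. Collagen IV as a whole was lower, at 798 ± 43.0 FPKM in Control and 393 ± 9.81 FPKM with TGF-β1. On the log2 scale, the mean change of Col4a1 and Col4a2 was lower than that of the other 4 genes by a difference of -2.10 (SE 0.089), but the other 4 did not move as a group, since 2 were higher and 2 lower.

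Within the minor chains, Col4a3 and Col4a4 together went from 0.49 ± 0.078% to 12.7 ± 0.62% of collagen IV FPKM. Col4a5 went from 7.28 ± 1.04% to 9.88 ± 0.66% of the sum although its own FPKM was lower, because the sum was lower still. Col4a6 went from 1.64 ± 0.12% to 0.52 ± 0.062%. Of the major chains, Col4a1 was close to the same share in both groups (51.5 ± 0.53% and 49.5 ± 1.24%), and Col4a2 went from 39.1 ± 0.82% to 27.4 ± 1.18%.

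**Figure D2:**
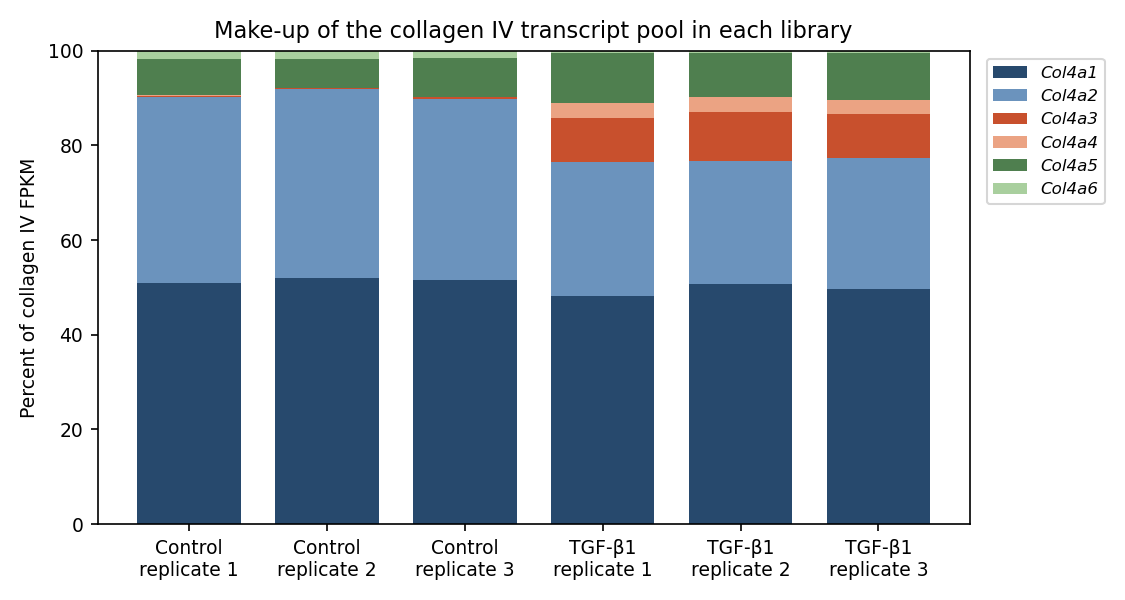
Percent of the summed collagen IV FPKM taken by each of the 6 genes in each library, as stacked bars from Col4a1 at the bottom to Col4a6 at the top. The blue Col4a1 and Col4a2 segments end at 89.8 to 91.8% in Control and at 76.6 to 77.2% with TGF-β1, where the red Col4a3 and Col4a4 segments become visible.

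In all 3 gene pairs the balance of the chains moved toward the gene with the odd number, the one that encodes the chain of the α1-like class. The ratio of Col4a1 to Col4a2 was 1.30, 1.30 and 1.35 in the Control libraries and 1.70, 1.94 and 1.79 in the treated ones. The ratio of Col4a3 to Col4a4 was 1.78, 1.31 and 2.01 in the Control libraries and 2.88, 3.38 and 3.03 in the treated ones. The ratio of Col4a5 to Col4a6 moved most, from 4.31, 3.71 and 5.36 to 19.4, 16.2 and 21.9. Control and treated libraries did not overlap in any of the ratios, whose means were 1.38, 1.82 and 4.31 times as high with TGF-β1. Genes that share a start region were therefore higher or lower together, but not by the same amount: on the log2(FPKM + 1) scale the change of Col4a1 was above that of Col4a2 by 0.45 (SE 0.059), that of Col4a3 above that of Col4a4 by 1.07 (SE 0.14) and that of Col4a5 above that of Col4a6 by 1.65 (SE 0.17). The added 1 FPKM enters these differences. Without it, the changes in mean log2(FPKM) were 3.98 for Col4a3 and 3.10 for Col4a4. They were -0.57 for Col4a5 and -2.68 for Col4a6. Values for Col4a3 carry the limit of its row name.

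**Figure D3:**
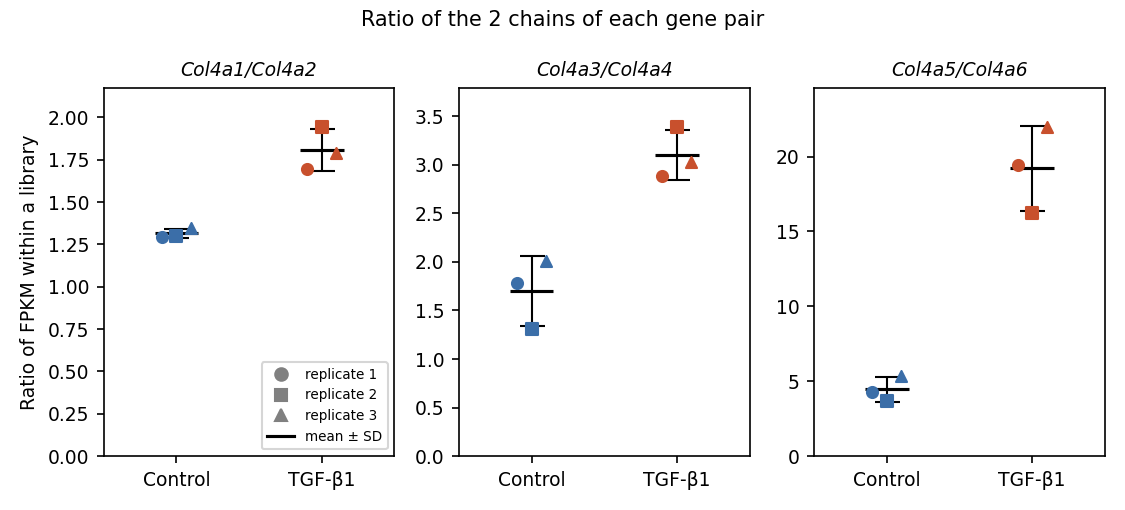
Ratio of FPKM between the genes of each head-to-head pair within a library, for Control (blue) and TGF-β1 (red), with replicates as circles, squares and triangles, black bars for mean ± SD, and each axis starting at 0. All treated ratios lie above all Control ratios, from 1.32 ± 0.028 to 1.81 ± 0.12 for Col4a1 to Col4a2, from 1.70 ± 0.36 to 3.10 ± 0.26 for Col4a3 to Col4a4 and from 4.46 ± 0.83 to 19.2 ± 2.86 for Col4a5 to Col4a6.

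To see whether the genes around each pair differed in the same way, the 4 nearest tested protein-coding genes on each side were taken by position, a choice made after values were seen. Over all tested genes, 24.5% were higher and 23.6% lower. Beside Col4a1 and Col4a2, 2 of 8 neighbours were upregulated, 1 was downregulated and 5 were not called. Rab20, a small GTPase gene 4.11 kb (kilobases) from Col4a2, was at 3.50 ± 0.73 FPKM in Control and 3.81 ± 0.72 FPKM after treatment (log2 change 0.10, limma adjusted p 0.66). Beside Col4a6 and Col4a5 the counts were also 2 upregulated, 1 downregulated and 5 not called. Atg4a, an autophagy protease gene 1.13 kb from the end of Col4a6, was at 9.02 ± 1.06 and 9.01 ± 0.61 FPKM (log2 difference 0.0024, SE 0.11, limma adjusted p 0.99), next to a gene 6.38-fold lower.

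Beside Col4a4 and Col4a3, 6 of 8 neighbours were upregulated and 1 was downregulated, reaching out to 2592 kb. The nearest gene on the Col4a4 side, Rhbdd1, which encodes a rhomboid protease and ends 5.36 kb away, rose from 13.0 ± 0.48 to 31.9 ± 2.36 FPKM (log2 difference 1.23, SE 0.084, limma adjusted p 1.1e-04). The nearest on the Col4a3 side, Mff, a mitochondrial fission gene 2.83 kb away, rose from 135 ± 2.60 to 188.5 ± 12.5 FPKM (log2 difference 0.48, limma adjusted p 0.0037). Changes of the neighbours were smaller than those of Col4a3 and Col4a4. Whether the loci differ in this count was not tested, and 24.5% of all tested genes were higher.

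**Figure D4:**
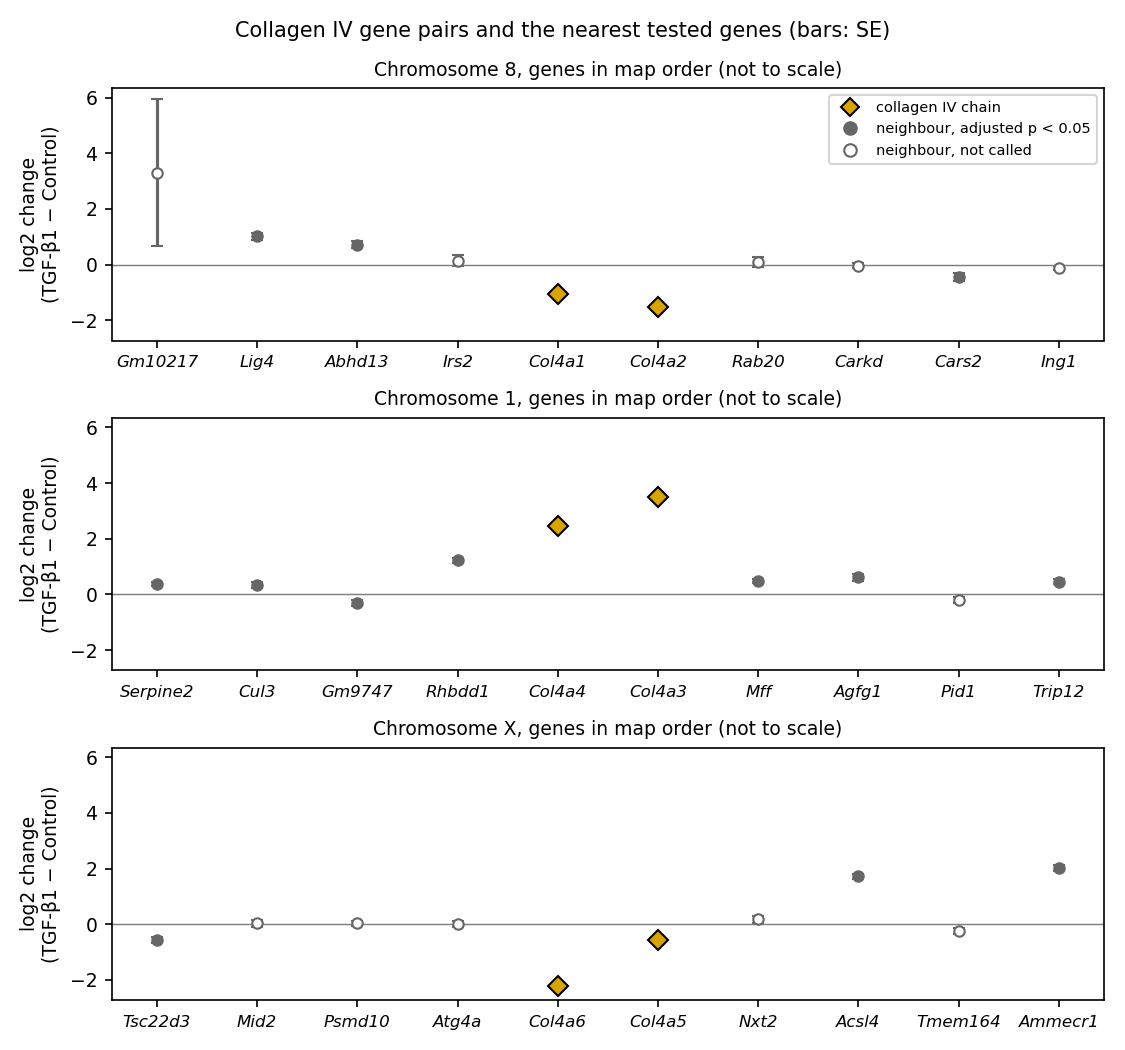
Log2 change (TGF-β1 minus Control, log2(FPKM + 1), bars for SE) of the collagen IV genes (yellow diamonds) and of the 4 nearest tested protein-coding genes on each side (circles, filled where the limma adjusted p was under 0.05), in map order and not to scale. The diamonds lie at -1.07 and -1.53 on chromosome 8, at 2.44 and 3.51 on chromosome 1 and at -2.21 and -0.56 on the X chromosome. Of the genes beside them, Atg4a, Rab20 and Irs2 lie near 0, and Rhbdd1 and Mff, beside the chromosome 1 pair, lie at 1.23 and 0.48. The wide bar on chromosome 8 is Gm10217, listed at 0 in every Control library. With TGF-β1 it was at 318 ± 551 FPKM, an SD above its mean, and it was not called (limma adjusted p 0.34).

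The genes whose profile over the 6 libraries was most like that of each chain were found by the Euclidean distance of log2(FPKM + 1), each gene centred on its own mean, among 6510 genes. With Col4a1 these were Sorbs3 (distance 0.085) and Tspan4 (0.12), and with Col4a2 the collagen VI gene Col6a1 (0.15) and Arhgap24 (0.16). Col6a1 went from 93.4 ± 5.85 to 32.4 ± 1.39 FPKM. Nearest to Col4a3 were Ccbe1 (0.26) and the matricellular gene Thbs1 (0.27), which went from 18.2 ± 0.34 to 220.5 ± 15.2 FPKM. Nearest to Col4a4 were Skil (0.13), which encodes the SMAD corepressor SnoN and went from 2.42 ± 0.23 to 18.2 ± 1.17 FPKM, and Fam198b (0.17). Nearest to Col4a5 were Arl6ip5 and Vps13d (both 0.15), and nearest to Col4a6 were Sorbs2 and Tspan5 (both 0.23). With 6 libraries in 2 groups the measure mostly ranks genes by the size of their change.

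Genes that act on collagen IV chains inside the cell or join them outside it mostly rose. For this and the next lists the share over all tested genes was 48.1% changed, 24.5% higher and 23.6% lower. Of 16 genes for folding, modification, export and cross-linking, 15 were tested, 11 were upregulated, none was downregulated and 4 were not called (limma adjusted p under 0.05, 73.3% called). The median log2 change was 0.88, against -0.02 for all tested genes. Loxl2, a lysyl oxidase that cross-links collagen IV, rose from 68.1 ± 5.95 to 403 ± 31.4 FPKM (log2 difference 2.55, limma adjusted p 1.8e-05). Pxdn, the peroxidase that forms the sulfilimine bonds of collagen IV networks, rose from 18.4 ± 0.88 to 60.3 ± 3.88 FPKM (log2 difference 1.66, limma adjusted p 3.7e-05). Sec23a, a subunit of the coat that carries procollagen out of the endoplasmic reticulum, rose from 20.1 ± 0.86 to 51.8 ± 1.44 FPKM (log2 difference 1.33). Serpinh1, the collagen chaperone HSP47, rose from 431 ± 37.4 to 796 ± 83.1 FPKM (log2 difference 0.88, limma adjusted p 0.0015). These proteins, other than Pxdn, also serve other collagens.

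Among those not called, Plod3, the lysyl hydroxylase and glycosyltransferase most tied to collagen IV, was at 45.8 ± 8.05 and 64.4 ± 10.97 FPKM (limma adjusted p 0.058, and 0.040 without Control replicate 3). P3h2, a prolyl 3-hydroxylase of basement membrane collagen, was at 2.68, 2.21 and 1.90 FPKM in Control and at 0.15, 2.10 and 0.090 FPKM with TGF-β1. A single treated library, replicate 2, overlapped Control, and the limma adjusted p of 0.080 became 0.0016 without it and 0.0079 with replicates 1 and 3 alone. The others were Ppib, the cyclophilin B gene (limma adjusted p 0.092, and 0.022 without Control replicate 3), and Crtap (limma adjusted p 0.64), named after their values were seen.

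The other components of basement membranes moved both ways. Of 20 listed genes 13 were tested, of which 3 were upregulated, 7 downregulated and 3 not called (76.9% called), with a median log2 change of -0.31. Nid2, which encodes nidogen-2, a linker of laminin and collagen IV, was at 22.4, 26.5 and 29.2 FPKM in Control and at 1.13, 0.84 and 1.18 FPKM with TGF-β1 (log2 change -3.72, limma adjusted p 1.2e-05). Nid1 fell less, from 77.1 ± 1.46 to 62.0 ± 6.62 FPKM (log2 difference -0.31, limma adjusted p 0.034), and leaving out any 1 library other than TGF-β1 replicate 2 (5 of 6 such fits) ended that call, with adjusted p from 0.068 to 0.10. Npnt, the integrin α8 ligand nephronectin, fell from 36.8 ± 1.22 to 4.13 ± 0.31 FPKM (log2 difference -2.88), and Tinagl1 from 235.6 ± 23.7 to 91.3 ± 11.5 FPKM (log2 difference -1.36). The laminin chains of the mature glomerular basement membrane fell, in contrast to Col4a3 and Col4a4: Lama5 from 133 ± 7.35 to 68.5 ± 3.99 FPKM (log2 difference -0.95, limma adjusted p 2.7e-04), Lamb2 from 19.5 ± 2.47 to 8.68 ± 2.79 FPKM (log2 difference -1.13, limma adjusted p 0.0094) and Lamc1 from 92.5 ± 7.47 to 64.9 ± 4.94 FPKM (log2 difference -0.51, limma adjusted p 0.0064).

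Hspg2, which encodes perlecan, was at 64.2, 32.8 and 55.6 FPKM in Control and at 101, 22.3 and 110 FPKM with TGF-β1 (limma adjusted p 0.66). Both replicate 2 libraries were the lowest of their group, and with replicates 1 and 3 alone the log2 change was 0.81 with an adjusted p of 0.010. Without TGF-β1 replicate 2 it was 1.09 with an adjusted p of 0.031, and without TGF-β1 replicate 3 its direction turned (-0.037, adjusted p 0.97). Among the upregulated genes, and named after their values were seen, were Sparc, a collagen-binding matricellular protein gene (log2 change 1.28), and Lamb1 (0.35). The call for Lamb1 (limma adjusted p 0.018) was lost without Control replicate 2 (0.052) or TGF-β1 replicate 1 (0.056), with replicates 1 and 3 alone (0.091), and under 2 of the other scalings (0.16 in both).

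Among receptors, 9 of 11 listed genes were tested, of which 3 were upregulated, 4 downregulated and 2 not called (77.8% called; median log2 change 0.01). Itgb1, the β1 integrin subunit shared by the collagen receptors, rose from 259 ± 9.96 to 1026 ± 16.4 FPKM (log2 difference 1.98, limma adjusted p 1.8e-05). Its partner Itga1, whose α1β1 dimer binds collagen IV, fell from 6.55 ± 0.63 to 1.44 ± 0.32 FPKM (log2 difference -1.64, limma adjusted p 2.2e-04). Itga2, the α subunit of the other main collagen receptor, was below the filter and was at 0.045 to 0.18 FPKM in Control and 1.52 to 2.21 FPKM with TGF-β1 (adjusted p 5.5e-04 in limma without the filter). Itgb3 rose from 1.57 ± 0.11 to 8.44 ± 0.53 FPKM (log2 difference 1.88), and Dag1, the laminin receptor dystroglycan, fell from 51.1 ± 14.3 to 14.1 ± 0.38 FPKM (log2 difference -1.75). Ddr1, a receptor tyrosine kinase activated by collagen, fell from 89.5 ± 9.75 to 55.8 ± 13.2 FPKM (log2 difference -0.70, limma adjusted p 0.025), a call lost without Control replicate 1, 2 or 3 (adjusted p 0.055, 0.053 and 0.069). Itga6, named after its values were seen, was the other upregulated gene (log2 change 0.48, limma adjusted p 0.031), a call lost in 4 of 6 such fits, those without Control replicate 1 or 3 or TGF-β1 replicate 1 or 2 (adjusted p 0.063 to 0.082), and under 2 of the other scalings (0.24 and 0.14).

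Of 10 genes for turnover of collagen IV, 6 were tested, of which 4 were upregulated, 1 was downregulated and 1 was not called (83.3% called; median log2 change 0.46). Mmp14, a membrane-bound protease that activates the gelatinase MMP2, rose from 142 ± 12.3 to 328 ± 2.33 FPKM (log2 difference 1.20). Mmp2 itself rose from 412 ± 47.4 to 579 ± 35.0 FPKM (log2 difference 0.50, limma adjusted p 0.013), a call lost under 2 of the other scalings (adjusted p 0.10 and 0.066). The protease inhibitor gene Timp1 rose from 209 ± 15.9 to 506 ± 25.8 FPKM (log2 difference 1.27, limma adjusted p 1.4e-04), and Timp2 fell from 418 ± 15.7 to 287 ± 25.1 FPKM (log2 difference -0.55). Mmp9, the other gelatinase, was listed at 0 in all 3 Control libraries and reached 0.59, 0.97 and 0.59 FPKM after treatment, below the filter (adjusted p 0.0022 in limma without it). The remaining upregulated gene, Mmp12, named after its values were seen, had a log2 change of 0.43 (limma adjusted p 0.039), and its call was lost without Control replicate 1 or 2 or any single TGF-β1 library (adjusted p 0.060 to 0.10), with replicates 1 and 3 alone (0.18), without the filter (0.071) and under 2 of the other scalings (0.055 and 0.19).

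**Figure D5:**
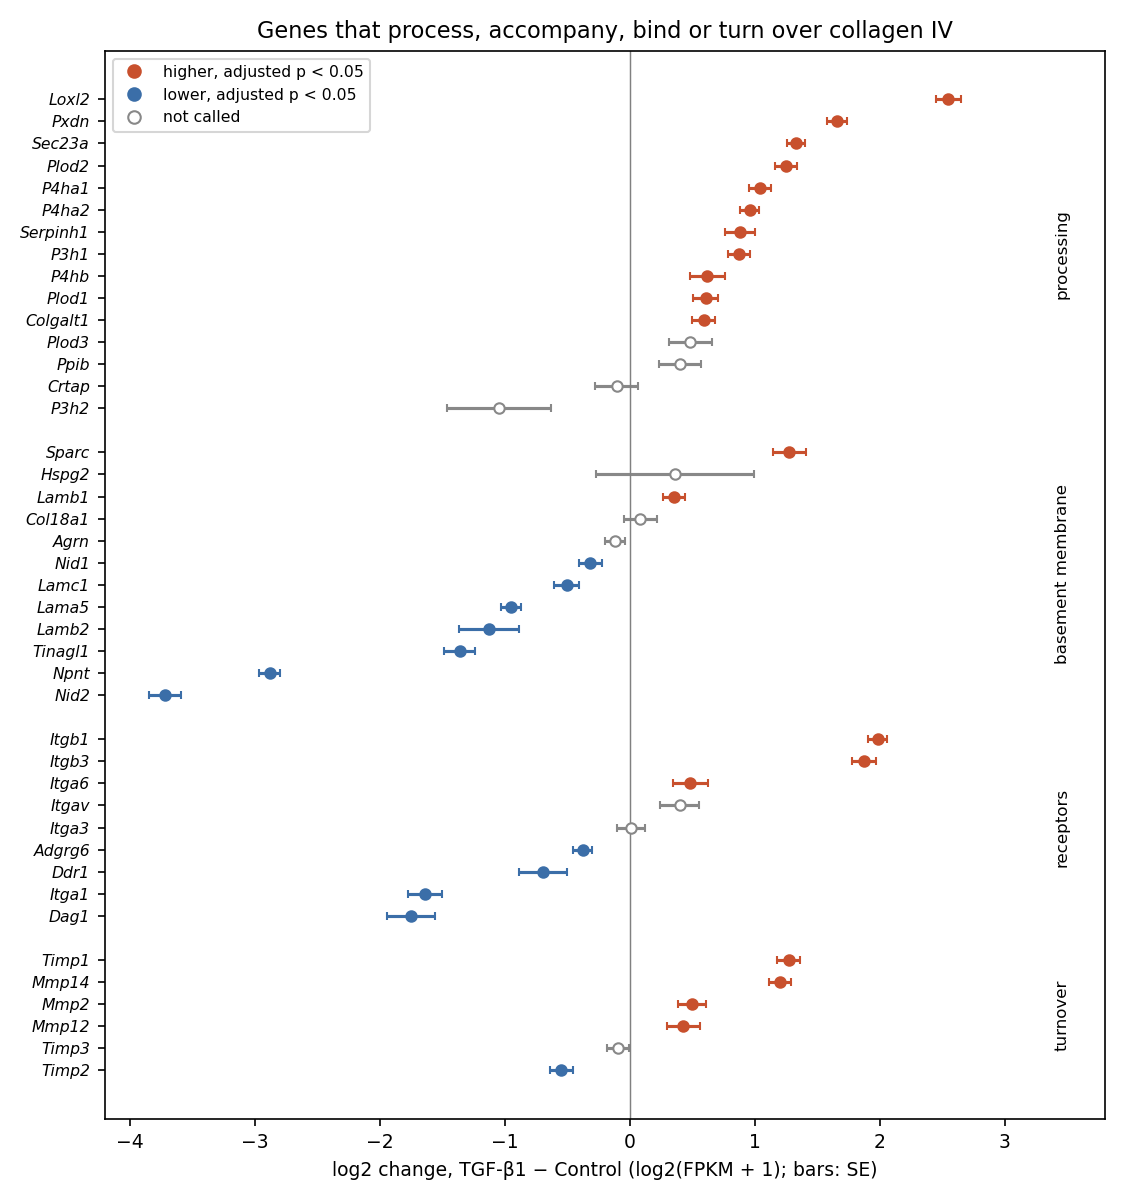
Log2 change (TGF-β1 minus Control, log2(FPKM + 1), bars for SE) of 42 of the 43 tested genes that process collagen IV, accompany it in basement membranes, bind it or turn it over, coloured red or blue where the limma adjusted p was under 0.05 (20 higher, 12 lower) and open where it was not (10). The processing genes lie mostly to the right of 0, and the basement membrane genes reach from 1.28 for Sparc to -3.72 for Nid2.

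Because α3 and α4 are podocyte products in the glomerulus and α5 and α6 are made by Bowman's capsule and tubules, markers of those cells were read beside the chains. In bulk samples fewer cells of a type and less RNA per cell cannot be told apart. The podocyte marker Nphs1 was near 0 in both groups (0.048 to 0.40 FPKM over all libraries), and Lmx1b was at 0.11 to 0.68. Of 12 podocyte markers 6 were tested, and 1 was upregulated and 4 downregulated, with Wt1 falling by 0.80 and Podxl by 0.56 on the log2 scale (limma adjusted p 0.011 and 0.018). Their summed level was 78.8 to 81.0 FPKM in Control and 76.8 to 82.9 FPKM with TGF-β1, while Col4a3 was 15.6-fold higher.

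Markers of tubular or parietal epithelium moved both ways. All 5 tested of 13 listed fell (Pax2, Pax8, Cldn1, Cldn2 and Aqp1), but without the filter 3 rose beside 6 that fell. Those 3 were at low levels: Krt18 at 0.28 ± 0.12 and 1.57 ± 0.22 FPKM in Control and treated cells (limma adjusted p 0.0014), Krt19 at 0.16 ± 0.15 and 1.06 ± 0.23 FPKM (0.0056) and Slc12a1 at 0.061 ± 0.035 and 0.38 ± 0.12 FPKM (0.012). All 8 were named after their values were seen. The summed level was 263 to 286 FPKM in Control and 71.8 to 75.4 FPKM with TGF-β1, most of it from Pax8 and Cldn1. Among the defining markers Cdh1 was at most 0.12 FPKM in any library. Of 8 macrophage markers listed 3 were tested, and 2 were called, both lower. Their sum was 87.0 to 113.8 FPKM in Control and 9.03 to 11.3 FPKM with TGF-β1, most of it from Cd14 (94.3 ± 13.6 and 7.71 ± 0.82 FPKM). Csf1r was at 6.27 ± 0.98 and 0.41 ± 0.16 FPKM, and Cd68, at 2.79 ± 0.84 and 2.22 ± 0.45 FPKM, was not called (limma adjusted p 0.39). Cd14, Csf1r and Cd68 were named after their values were seen. Ptprc was at 0 in Control and did not exceed 0.045 FPKM after treatment. Endothelial markers summed to 4.02 to 5.79 and 3.85 to 4.84 FPKM, with Pecam1 at most 0.14 FPKM and the 1 tested of 10 listed not called. Their part in the chain levels was not tested. Of the 10 markers for the labelled mesangial cells 5 were tested, of which 3 were upregulated and 1, Pdgfrb, downregulated (37.5 ± 4.82 to 29.2 ± 0.75 FPKM, limma adjusted p 0.040, and 0.053 without the filter). Without the filter 4 of the 10 were upregulated and 0 downregulated. Gata3 was at 1.76 ± 0.88 FPKM in Control and 1.03 ± 0.21 FPKM with TGF-β1 (limma adjusted p 0.28). Cspg4, below the filter, was at 0.073 ± 0.037 and 1.21 ± 0.26 FPKM (adjusted p 9.5e-04 in limma without it). Both were named after their values were seen. Itga8 (0 to 0.17 FPKM) and Des (0.099 to 0.55 FPKM) were near 0. The label thus rests here mostly on Pdgfrb and on contractile and filament genes that other stromal cells share. In every Control library, Pax8 and Cldn1 of the epithelial list stood above Pdgfrb.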

How the data were processed

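RNA-Seq was analysed in 6 libraries, 3 Control and 3 TGF-β1, grouped and numbered by the sample labels. The authors discarded reads of low quality, aligned the others to mm9 with TopHat (TopHat2 2.0.11 in the submitters' processing notes) and estimated FPKM with Cufflinks. The deposited values are FPKM, 1 column per library, with no further scaling stated. The count test of the study (DESeq) was not used, because counts were not analysed here.

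Rows with a mean of at least 1 FPKM (11898 of 19730) were tested on log2(FPKM + 1) in R 4.3.3 by limma 3.58.1, using eBayes with a trend after lmFit. Tests were two-sided and p-values were adjusted over all these rows by Benjamini-Hochberg, with 0.05 as threshold, after the fit was tested on simulated data. The log2 scale with 1 added understates changes of low genes. Ratios and shares were computed per library from FPKM in Python 3.11.15. Positions, promoters and sequences came from GENCODE M1 on mm9, the build of the files. A protein table was not used here, so chain sequences were not compared.

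The members and gene lists were chosen with earlier results of these data known. Named genes were all 6 chains, the 3 called genes with the largest change in each partner list, a preset choice of partners and markers, and the 2 genes of at least 10 FPKM and 300 nt with the profile most like each chain. Mia3 and Itga10 were not analysed here, and the values of some listed genes are not reported here. Alternatives were other pseudocounts, filters, scalings, the variance trend, the threshold, a replicate term and leaving out each library. Depth limits precision for values under about 1 FPKM. Same-numbered libraries had deviation correlations of 0.092, 0.23 and 0.085, so they were not treated as pairs.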

Additional observations from a re-analysis of the deposited data

How the results depend on the processing

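Filters, the variance trend and the replicate terms cannot alter the log2 change of a chain in this balanced design. Since the groups did not overlap in any of the 6 genes, pseudocounts and left-out libraries could not turn a direction either. Only the scalings could have done so. With many values fixed in this way, all 102 values of the 6 chains under the alternatives kept their direction, and 86 stayed within 1 SD. The other 16 were these log2 changes. With a pseudocount of 0.1 they were 3.93 for Col4a3, 3.01 for Col4a4 and -2.62 for Col4a6, and with 0.5 they were 3.72, 2.72 and -2.42, since less was added to low values. Quantile normalization gave -1.31 for Col4a1, -1.72 for Col4a2 and 2.58 for Col4a4. Scaling to a common protein-coding sum gave -1.27, -1.72, 3.35, 2.30, -0.75 and -2.37 for Col4a1 to Col4a6, all of them lower as the median of all genes was. Replicates 1 and 3 alone gave 3.32 for Col4a3. Leaving out 1 library in turn gave -1.13 to -1.04, -1.57 to -1.49, 3.39 to 3.58, 2.42 to 2.47, -0.65 to -0.45 and -2.27 to -2.13 for Col4a1 to Col4a6, and -14.1 to -13.1 percentage points for the Col4a1 and Col4a2 share.

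Over all genes, 5721 changed (2911 up and 2810 down), 4451 to 5422 when 1 library was left out, 3672 at an adjusted p under 0.01, and 4340 within replicates 1 and 3. The protein-coding sum turned the split to 2015 up and 3927 down. Of the 43 partner genes tested, 33 were called, 29 to 35 when 1 library was left out, and 17 up and 14 down under the protein-coding sum. With the replicate number as a replicate block 5391 genes and 32 partner genes were called, and not every library correlated best with its own number (Control replicate 1 did with TGF-β1 replicate 3, at 0.12). With each gene at the length of its longest coding transcript, depth limits Col4a4 in Control most, at about 110 to 124 fragments. Col4a3 in Control, at about 170 to 243, would have fewer at the length of the transcript that names its row.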
